A study of Canis lupus familiaris with 17 samples.

Results

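The comparison set 3 canine soft tissue sarcomas excised on day 8 after 1 intratumoral dose of IL-2 and IL-12 against 3 sarcomas excised on day 2 after the same single dose. These 6 of the series' 17 tumours were chosen by their sample labels, and the question they address is how far the response to 1 dose had decayed by day 8. The day 8 group held a perivascular wall tumor (replicate A) and 2 peripheral nerve sheath tumors (replicates B and C). The day 2 group held 2 peripheral nerve sheath tumors (A and C) and a myxosarcoma (B). All 6 dogs were client-owned animals with spontaneous tumours, and they had received the cytokines as collagen-binding fusion proteins, made to stay in the matrix of the injected tumour. As a background level, 7 untreated sarcomas from archived tissue (4 perivascular wall tumors and 3 peripheral nerve sheath tumors) were measured on the same panel, so archiving and the lack of treatment cannot be told apart. The other 4 tumours of the series had received a second dose. They entered the estimate of the spread, the choice of the genes tested and the scaling, and not the compared groups. Each treated tumour came from a different dog and was sampled at 1 time. A difference between day 8 and day 2 is therefore a difference between dogs, and not a change followed within a dog.

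IL-12 is a cytokine of antigen-presenting cells that drives T cells and NK cells to release interferon-gamma. IL-2 makes activated T cells and NK cells divide and acquire cytotoxic granules. Interferon-gamma acts through the kinases JAK1 and JAK2 on tumour and myeloid cells alike, and induces chemokines, antigen-processing genes and brakes on T cells such as CD274 (PD-L1) and IDO1.

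RNA from formalin-fixed tissue was hybridized to the nCounter Canine IO panel, which counts barcoded probes bound to single RNA molecules without amplification. Endogenous counts totalled 1397025 to 1571458 in the day 8 tumours, against 1232818, 1089862 and 126997 in day 2 tumours A, B and C. The geometric mean of the 20 housekeeping probes was 526 to 709 counts on day 8 and 61.9 to 281 on day 2, without overlap (exact two-sided permutation p = 0.1, the smallest that 3 against 3 allows). Levels are given as normalized counts, the raw count of a probe times a factor that brings each tumour's housekeeping geometric mean to a common level, with the tumours of a group in the order A, B and C. This scaling multiplied the day 2 counts more, so the background, set at the mean plus 2 SD of the negative control probes, lay at 15.4 to 19.7 normalized counts on day 8 and at 36.9, 50.9 and 135 in day 2 tumours A, B and C. A gene near background can thus read lower on day 8 than any day 2 tumour could show. Log2 counts correlated at r = 0.925 to 0.94 between day 8 tumours, 0.738 to 0.909 between day 2 tumours and 0.675 to 0.808 between a day 8 and a day 2 tumour (9 pairs). The mesenchymal gene VIM had 269698, 154769 and 213617 counts on day 8 and 94703, 116992 and 111629 on day 2. Of the nerve sheath markers, S100B had 78.5, 156 and 87.5 on day 8 and 139, 389 and 142 on day 2. SOX10 was above background in 0 of 3 day 8 and 0 of 3 day 2 tumours, the nerve sheath tumors included.

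Lower values on day 8 outnumbered higher ones across the panel. Of 724 genes tested in edgeR, 139 were lower on day 8 (19.2% of those tested) and 3 were higher (0.414%), at a Benjamini-Hochberg adjusted p under 0.05. The genes that fell most were CXCL10, IDO1, GBP5, ACOD1, CCL8, IRF1, IFGGC1 and IFNG, by 5.22 to 9.75 on the log2 scale. Of the 139 lower genes, 111 differed by at least 4-fold. In 132 of them every day 8 tumour lay below every day 2 tumour, against 275 of all 724 genes (38.0%). The median tested gene was also lower on day 8, by 1.13 log2, so single genes are read against that shift. The number called lower in a gene list is read against the 19.2% of all tested genes.

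The size of this shift depends on the scaling. With TMM, which scales by the bulk of the tested genes, the median change was -0.28, 54 genes were lower (7.46%) and 27 higher (3.73%). A set of 51 lower and 3 higher genes was called under all of housekeeping scaling, TMM and a median-of-ratios scaling. Scaling by the positive control probes called 5 lower genes (ACOD1, CCL8, CXCL10, GBP5 and IDO1) and 0 higher, with 89 genes at an unadjusted p under 0.05 in edgeR. The housekeeping probes themselves differed between the groups by -1.09 to 1.09 log2 (SD 0.608 over 20 probes). With day 8 tumour A or B left out, 0 genes were called in each case. The lowest edgeR adjusted p in the panel was 0.0648 without A and 0.0537 without B. Unadjusted p under 0.05 was then found for 193 and 238 genes. Without day 8 tumour C only LOC490356 was called (edgeR adjusted p = 0.0439), with 280 genes at an unadjusted p under 0.05. All 139 lower genes had a negative change in each of these 3 fits. Leaving out the shallow day 2 tumour C left 73 lower genes (10.1%) and 2 higher genes (0.276%), of which 67 and 0 were among the calls above. Among peripheral nerve sheath tumors alone, 2 per group, 0 genes were called in edgeR and 153 had an unadjusted p under 0.05, with a median change of -1.03 log2. With the sarcoma type in the model 80 genes were called, all of them lower, and 69 of these were among the 139. All 139 had a negative change in both of these fits. After subtracting each tumour's mean negative control count, 44 of the 139 lower genes were still called. Of the 139, 111 were above background in all 3 day 2 tumours, 15 in 2 of them and 13 in 0 or 1.

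**Figure D1:**
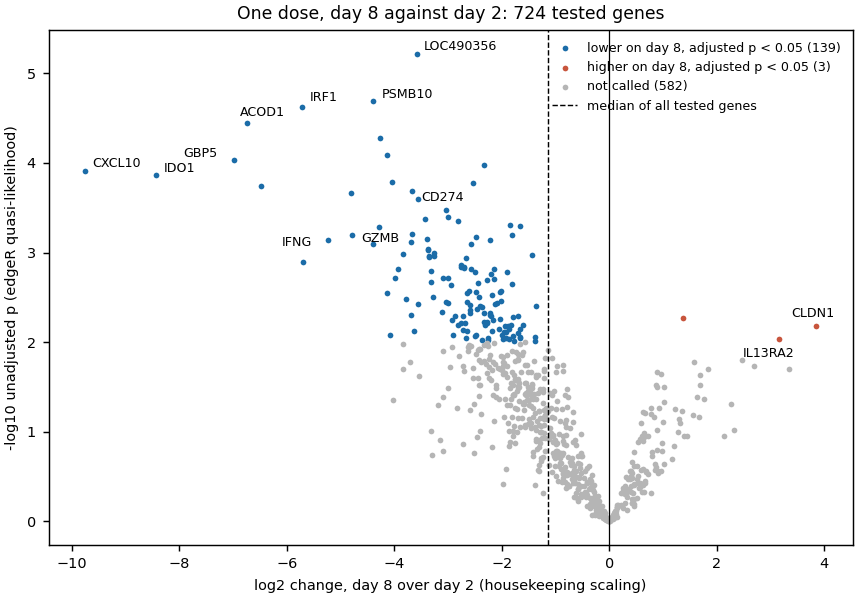
Each point is 1 of 724 tested genes, with its log2 change from housekeeping scaling, day 8 over day 2, on the x axis and minus log10 of the unadjusted edgeR p on the y axis. The 139 lower genes stretch to -9.75 (CXCL10), the 3 higher genes (CLDN1 and IL13RA2 are labelled) lie to the right of 0, and the dashed line marks the median change of -1.13.

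Interferon-gamma and the genes that it induces had the most negative median of the 25 lists. Of its 18 tested members, 14 were lower on day 8 and 0 higher, with a median change of -3.20 log2 against -1.13 for all tested genes. With TMM 11 were lower and the median was -2.30, against -0.28. The list's lower genes were above background in all 3 day 2 tumours, IFNG in tumour C by only 1 count (136 against 135), and 12 of them were called after background subtraction. Without day 2 tumours A, B and C in turn, 12, 13 and 14 of the 14 were called.

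The cytokine gene IFNG itself had 6.21, 12.1 and 9.13 normalized counts in day 8 tumours and 601, 291 and 136 in day 2 tumours. None of the day 8 values was above background, and day 2 tumour C, at 136 against a background of 135, was barely above it. IFNG fell by 5.22 log2 (SE 1.27, edgeR adjusted p = 0.0177), a fold that depends on the background. In untreated tumours it had 3.78 to 8.97 counts, below their backgrounds of 10.4 to 19.6. With both groups below background, the day 8 and untreated levels of IFNG cannot be ranked.

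CXCL10, a chemokine that draws CXCR3-bearing T cells, was the gene with the largest fall. It had 46.3, 115 and 95.8 counts on day 8, against 150666, 59058 and 12335 on day 2. The groups were far apart, and day 2 tumour A held the highest and C the lowest of the day 2 values. The change was -9.75 log2 (SE 1.97, edgeR adjusted p = 0.00988), and the day 8 values lay inside the untreated range of 9.45 to 395. Its relative CXCL11, which binds the same receptor, had 22.03, 22.3 and 28.9 on day 8 and 359, 81.3 and 329.7 on day 2, and fell by 3.38 log2 (SE 0.82, edgeR adjusted p = 0.0177).

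IDO1, an enzyme that breaks down tryptophan and so restrains T cells, had 16.9, 101 and 126 counts on day 8 and 58693, 10554 and 15063 on day 2. It fell by 8.43 log2 (SE 1.72, edgeR adjusted p = 0.00995). Day 8 tumours B and C lay just above the untreated range of 7.004 to 97.97, and A lay within it. GBP5, an interferon-induced GTPase of host defence, had 14.1, 29.4 and 18.3 on day 8 and 4521, 2569 and 782 on day 2 (fell by 6.99 log2, SE 1.37, edgeR adjusted p = 0.00961). Only 1 of the 3 day 8 tumours was above background for GBP5.

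Regulators of the pathway were lower as well. The transcription factor IRF1, which turns on antigen-processing genes, had 290.3, 347 and 226 counts on day 8 and 9964, 15189 and 20132 on day 2. It fell by 5.71 log2 (SE 0.99, edgeR adjusted p = 0.00568), and here day 2 tumour C was the highest of the 6. All 3 day 8 values of IRF1 were inside the untreated range of 83.3 to 807. The feedback inhibitor SOCS1 had 302, 158 and 146 on day 8 and 1801, 1627 and 530.1 on day 2 and fell by 2.71 log2 (edgeR adjusted p = 0.0223), a call that TMM lost (adjusted p = 0.0763).

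The receptor and the kinase at the head of the pathway were not called. The receptor chain IFNGR1 had 1052, 1598 and 1812 counts on day 8 and 1858, 1687 and 640.0 on day 2, with overlapping groups and a change of 0.09 log2 (SE 0.45, edgeR adjusted p = 0.88). The kinase JAK1 had 3426, 2832 and 2821 on day 8 and 3136, 3245 and 2133 on day 2, a change of 0.09 log2 (SE 0.45, edgeR adjusted p = 0.878). Under TMM these 2 changes read 0.97 and 1.02, again without a call, and both turn slightly negative without day 2 tumour C.

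**Figure D2:**
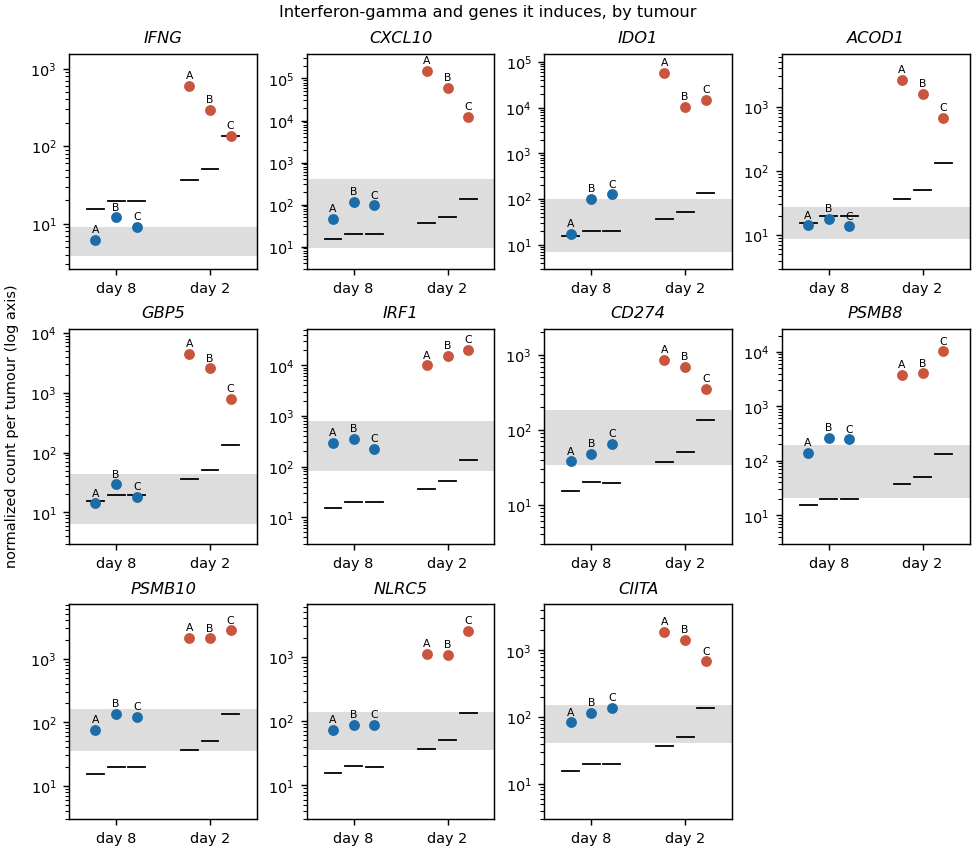
Normalized counts per tumour on a log axis for 11 genes, day 8 on the left and day 2 on the right of each panel, with replicate letters. Black dashes mark each tumour's background and the grey band the range of 7 untreated tumours. In every panel all 3 day 8 points lie below all 3 day 2 points.

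Peptide presentation genes had the next most negative medians. MHC class I molecules, called DLA in the dog, show peptides that the immunoproteasome cuts and the TAP transporter carries. Of 11 tested class I genes 6 were lower on day 8 and 0 higher, with a median of -2.65 log2, and with TMM 6 were lower with a median of -1.84. The immunoproteasome subunit PSMB8 had 139, 261 and 248 counts on day 8 and 3768, 4022 and 10227 on day 2, and fell by 4.80 log2 (SE 1.02, edgeR adjusted p = 0.0105). Its partner PSMB10 had 75.7, 134 and 122 on day 8 and 2118, 2087 and 2793 on day 2 (fell by 4.40 log2, SE 0.75, edgeR adjusted p = 0.00568). The 3 tumours of each group lay close together for PSMB10, and day 8 sat inside the untreated range of 35.6 to 164. All 6 class I calls were made without day 2 tumour A, and 5 and 5 without B and C.

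NLRC5, the transactivator of class I genes, had 73.4, 88.1 and 87.5 counts on day 8 and 1128, 1089 and 2567 on day 2 and fell by 4.26 log2 (SE 0.79, edgeR adjusted p = 0.00753). TAP1, a subunit of the peptide transporter, had 139.5, 424 and 351 on day 8 and 3397, 4267 and 1086 on day 2 (fell by 3.26 log2, edgeR adjusted p = 0.0197). B2M, PSMB9 and DLA-12 did not pass the test. B2M, the light chain of class I, had 15888, 43739.6 and 38054 on day 8 and 247216, 205654 and 40088 on day 2, where tumour C overlapped the day 8 range (change -2.34 log2, edgeR adjusted p = 0.0649). PSMB9 likewise had 490.3, 1312 and 1030.4 on day 8 and 8848, 7093 and 1287 on day 2, and again C alone overlapped (change -2.61 log2, edgeR adjusted p = 0.0524, and 0.0423 without C). The class I gene with the smallest change, DLA-12, had 481, 3415 and 2378 on day 8 and 5739, 10795 and 284 on day 2, with day 2 tumour C the lowest of all 6.

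MHC class II genes, which present peptides to CD4+ T cells, gave 3 lower and 0 higher of 10 tested, with a median of -2.52 log2 and, with TMM, 2 lower and a median of -1.69. CIITA, the master regulator of class II transcription, had 83.6, 116 and 139 counts on day 8 and 1894, 1424 and 685 on day 2. It fell by 3.57 log2 (SE 0.77, edgeR adjusted p = 0.0114), to values inside the untreated range of 40.7 to 153. DLA-DMB, a chain of the peptide exchanger, had 269, 511 and 736 on day 8 and 8221, 9041 and 2049 on day 2 (fell by 3.67 log2, edgeR adjusted p = 0.0177). DLA-DOB, a chain of the protein that restrains that exchanger, had 12.4, 25.5 and 50.95 on day 8 and 223, 117 and 194 on day 2 and fell by 2.58 log2 (edgeR adjusted p = 0.0343), a call lost under TMM (adjusted p = 0.0663). The invariant chain CD74 had 2902, 7439.7 and 10404 on day 8 and 57536, 45055 and 21321 on day 2. Its groups did not overlap, but it missed the threshold (change -2.58 log2, SE 0.90, edgeR adjusted p = 0.0524), as did the class II protease CTSS, whose groups overlapped (3257, 4067 and 2852 on day 8 and 11784, 12631 and 1655 on day 2, edgeR adjusted p = 0.217). With a day 2 tumour left out, the edgeR adjusted p was over 0.05 for DLA-DOB (0.0587 without A and 0.057 without C).

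Genes of the type I interferon response, known for defence against viruses and in part also driven by interferon-gamma, gave 5 lower and 0 higher of 14 tested, with a median of -1.79 log2. With TMM 1 was lower, where 7.46% of all tested genes were, and the median was -0.92. Without day 2 tumour C 1 was lower, where 10.1% of all tested genes were. ISG20, an exonuclease that degrades viral RNA, was the list member called under TMM. It had 27.1, 95.1 and 60.1 counts on day 8 and 918, 659 and 556 on day 2 and fell by 3.55 log2 (SE 1.06, edgeR adjusted p = 0.034). IFIH1, a sensor of double-stranded RNA, had 72.9, 244 and 159.7 on day 8 and 1400.1, 446 and 420.2 on day 2 (change -2.25 log2, edgeR adjusted p = 0.0485, and 0.139 under TMM). The interferon gene IFNA7, which is not in this list, was called lower as well, also under TMM, through day 2 tumour C. Its day 8 values of 22.6, 21.1 and 21.3 overlapped the day 2 values of 15.7, 107 and 1164, and without day 2 tumour C its adjusted p in edgeR was 0.0813. With a day 2 tumour left out, calls were lost for ISG20 (0.0517 without A and 0.0536 without C) and IFIH1 (0.169 without A, 0.0504 without B and 0.0553 without C) in edgeR.

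Of 28 tested genes of the IL-2 and IL-12 pathway, 16 were lower on day 8 and 0 higher, with a median of -2.15 log2. With TMM 7 were lower and 1 higher, with a median of -1.27, and without day 2 tumour C 10 were lower. The 3 chains of the high-affinity IL-2 receptor were among the lower genes. IL2RA, the chain that activated T cells and regulatory T cells add, had 12.99, 16.6 and 35.7 counts on day 8 and 614, 309 and 226 on day 2 and fell by 4.14 log2 (SE 1.19, edgeR adjusted p = 0.0298). Only 1 of 3 day 8 tumours was above background for it.

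IL2RB, the signalling chain shared with the IL-15 receptor, had 46.9, 67.7 and 57.8 on day 8 and 541, 535 and 343 on day 2, with both groups tight and far apart. It fell by 3.04 log2 (SE 0.68, edgeR adjusted p = 0.0142). The common gamma chain IL2RG had 73.4, 80.4 and 107 on day 8 and 1406, 753 and 549.5 on day 2 (fell by 3.38 log2, SE 0.84, edgeR adjusted p = 0.0192). IL15, a cytokine that signals through the same 2 chains, had 138, 202 and 148 on day 8 and 717, 522 and 1228 on day 2 and fell by 2.33 log2 (edgeR adjusted p = 0.00961). In this receptor group the loss of a day 2 tumour moved the edgeR adjusted p past 0.05 for IL2RA (0.0517 without A).

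The IL-12 receptor was less clear. IL12RB1 had 27.7, 28.1 and 38.02 on day 8 and 103, 104 and 252 on day 2, a change of -2.26 log2 (SE 0.72, edgeR adjusted p = 0.0416) that was not called under TMM (adjusted p = 0.105). IL12RB2, the chain specific to IL-12, had 18.1, 24.3 and 28.9 on day 8 and 104, 81.3 and 45.3 on day 2. It was above background in 2 of 3 day 2 tumours and did not pass the test (change -1.72 log2, SE 0.99, edgeR adjusted p = 0.185). Of the T-box factors that IL-12 and IL-2 signals raise, EOMES had 31.1, 43.4 and 33.5 on day 8 and 209, 218 and 219.8 on day 2 and fell by 2.58 log2 (SE 0.68, edgeR adjusted p = 0.0223). All 3 day 8 values of EOMES were above the untreated range of 6.302 to 24.7. TBX21 had 44.1, 54.9 and 56.3 on day 8 and 267, 174 and 142 on day 2 (change -1.92 log2, edgeR adjusted p = 0.0485, and 0.155 under TMM). Calls were lost in edgeR, when a day 2 tumour was left out, for IL12RB1 (0.114 without C) and TBX21 (0.104 without A, 0.0651 without B and 0.0579 without C).

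Cytotoxic granule and death-ligand genes, the killing tools of T cells and NK cells, gave 4 lower and 0 higher of 10 tested, with a median of -2.20 log2. With TMM the numbers were 4 and 0, with a median of -1.26. In these bulk samples fewer cells of a type and less RNA per cell cannot be told apart. GZMB, a protease that triggers death of the target cell, had 83.03, 110.4 and 39.5 counts on day 8 and 3318, 2627 and 459 on day 2. It fell by 4.78 log2 (SE 1.14, edgeR adjusted p = 0.0177). Day 8 tumours A and B were still above the untreated range of 11.1 to 39.3. Tumour C passed it by less than 1 count, a margin that is not resolved. The granule protein NKG7 showed the same order, with 52.5, 77.2 and 42.6 on day 8 and 545, 393 and 265 on day 2 (fell by 2.81 log2, edgeR adjusted p = 0.016) and an untreated range of 21.9 to 39.3.

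GZMA had 68.3, 80.4 and 79.1 on day 8 and 606, 413 and 246 on day 2 and fell by 2.48 log2 (SE 0.60, edgeR adjusted p = 0.0177). The death ligand FASLG had 24.9, 26.8 and 20.5 on day 8 and 147, 157 and 284 on day 2 (fell by 3.01 log2, edgeR adjusted p = 0.016). The pore-forming protein PRF1 had 113, 90.6 and 184 on day 8 and 226, 214 and 569 on day 2, without overlap but without a call (change -1.37 log2, SE 0.55, edgeR adjusted p = 0.0781). GZMK, a granzyme of memory T cells, had 74.00, 89.4 and 160.5 on day 8 and 307, 144 and 200.4 on day 2, with overlapping groups (change -1.01 log2, SE 0.83, edgeR adjusted p = 0.354).

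T cell markers gave 3 lower and 0 higher of 25 tested, with a median of -1.41 log2 and, with TMM, 1 lower and a median of -0.50. The list's summed level was 1016 to 1315 normalized counts on day 8 and 2941 to 3730.2 on day 2, with 491 to 1341 in untreated tumours. Its mean log2 level over the genes was 4.79 to 5.49 on day 8 and 3.68 to 5.285 in untreated tumours. By that measure day 8 tumours B and C were above the untreated range and A was inside it. SH2D1A, an adaptor of T and NK cell activation, was the member called under TMM also, with 22.6, 38.9 and 30.4 on day 8 and 176, 224 and 226 on day 2 (fell by 2.76 log2, SE 0.73, edgeR adjusted p = 0.0223). The costimulator ICOS had 14.1, 33.8 and 48.7 on day 8 and 289, 175 and 168 on day 2, and the receptor subunit CD3G had 20.9, 31.9 and 31.9 on day 8 and 102, 76.99 and 90.5 on day 2. Their edgeR adjusted p values were 0.0451 and 0.0449, and under TMM 0.082 and 0.184. CD3G in day 2 tumour C lay below that tumour's background of 135. The lineage markers were not called. CD3E had 61.6, 108 and 132 on day 8 and 412, 252 and 109.9 on day 2, where day 2 tumour C fell below its own background. CD8A had 52.5, 84.9 and 69.2 on day 8 and 372, 163 and 200.4 on day 2, without overlap (change -1.83 log2, SE 0.84, edgeR adjusted p = 0.107). CD4 had 70.6, 32.6 and 47.1 on day 8 and 47.2, 69.9 and 272 on day 2, with overlap (change -1.31 log2, SE 1.06, edgeR adjusted p = 0.344). When any 1 of the day 2 tumours was left out, ICOS and CD3G were not called in edgeR. The edgeR adjusted p of ICOS was 0.0829 without A, 0.0596 without B and 0.0601 without C. That of CD3G was 0.0756 without A, 0.0596 without B and 0.0603 without C.

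NK cell markers gave 7 lower and 0 higher of 16 tested, with a median of -1.74 log2. With TMM 3 were lower with a median of -0.84, and without day 2 tumour C 2 were lower. NCR1, the activating receptor that defines NK cells, had 12.4, 17.9 and 16.7 counts on day 8 and 117, 86.96 and 162 on day 2 and fell by 2.94 log2 (SE 0.82, edgeR adjusted p = 0.0265, and 0.0553 without day 2 tumour C). It was above background in 0 of 3 day 8 tumours. KLRB1, a lectin receptor of NK cells and some T cells, had 36.2, 47.2 and 48.7 on day 8 and 109, 84.1 and 207 on day 2, without a call (change -1.57 log2, edgeR adjusted p = 0.0678). CD160 had 22.6, 24.3 and 59.3 on day 8 and 65.8, 41.3 and 84.04 on day 2. It was above background in 3 day 8 tumours and 1 day 2 tumour, and its change of -0.82 log2 became 0.02 under TMM, with no call under either. The list shares IL2RB, TBX21 and EOMES with the cytokine pathway.

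**Figure D3:**
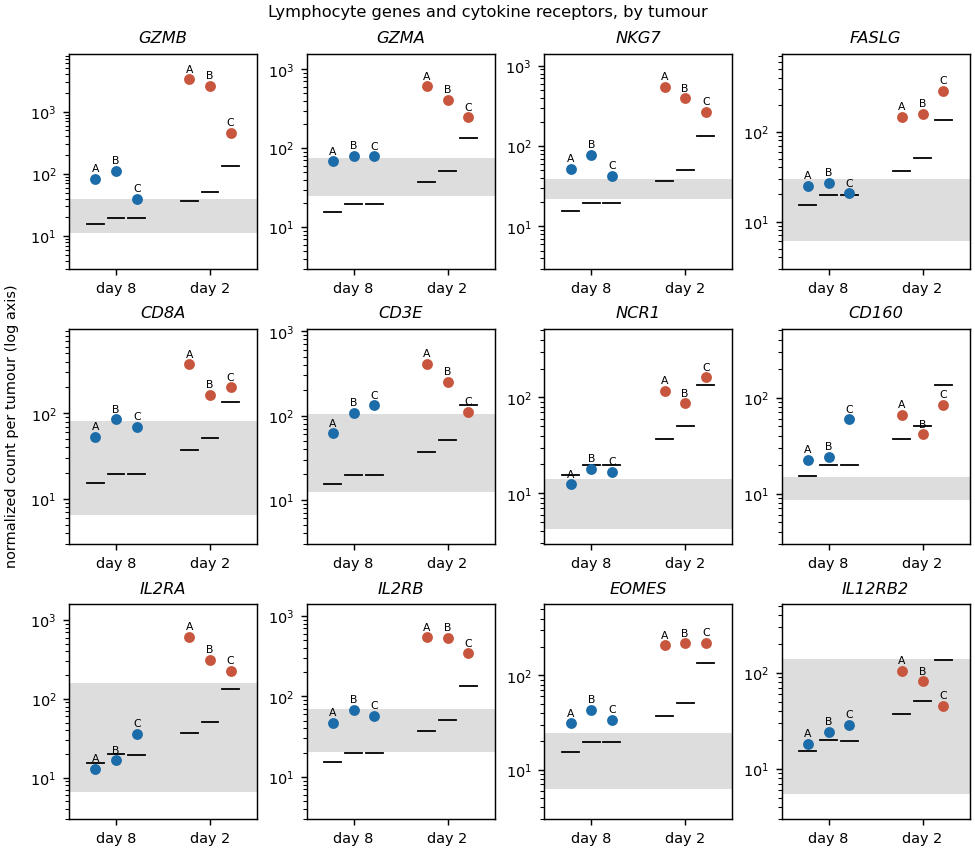
Normalized counts per tumour on a log axis for 12 lymphocyte and cytokine receptor genes, with day 8 on the left and day 2 on the right of each panel. Black dashes are each tumour's background and the grey band is the untreated range. GZMB, NKG7 and EOMES show day 8 points above the band (GZMB in tumour C at its edge) and below day 2. CD3E and CD160 overlap between the days.

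B and plasma cell markers gave 8 lower and 0 higher of 19 tested, with a median of -2.05 log2, and 2 lower with a median of -1.17 under TMM. The largest fall was in FCER2, the low-affinity IgE receptor (CD23), with 14.7, 24.3 and 31.9 on day 8 and 589, 526 and 375 on day 2 (fell by 4.39 log2, SE 1.08, edgeR adjusted p = 0.0177). The B cell kinase BLK had 8.47, 6.38 and 12.2 on day 8 and 54.3, 41.3 and 109.9 on day 2, and the B cell transcription factor PAX5 12.4, 10.9 and 22.1 on day 8 and 68.6, 38.5 and 84.04 on day 2. Each was above background in 1 of 3 day 2 tumours, and neither was called under TMM (adjusted p = 0.0756 and 0.179) or without day 2 tumour C (both 0.081 in edgeR). The defining marker MS4A1 (CD20) had 5.08, 4.47 and 19.8 on day 8 and 74.4, 42.8 and 64.6 on day 2, above background in 1 day 8 tumour and 1 day 2 tumour, and was not called (edgeR adjusted p = 0.0532). These low values lie near the background of 36.9 to 135 normalized counts on day 2, and the part that background played in them was not tested beyond its subtraction, after which 1 of the 8 calls held and the list's median was -2.21 log2. Without day 2 tumour A the edgeR adjusted p of PAX5 was 0.0725.

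T cell chemokines and their receptors gave 7 lower and 0 higher of 23 tested, with a median of -2.18 log2, and 2 lower (CXCL10 and CXCL11) with a median of -1.31 under TMM. CCL19, which guides CCR7-bearing T cells and dendritic cells, had 15.8, 51.7 and 194 on day 8 and 2601, 1319 and 478 on day 2. Its change of -4.08 log2 (SE 1.37, edgeR adjusted p = 0.0479) was not called under TMM (adjusted p = 0.0911). CCL4, which attracts T cells, NK cells and monocytes, had 52.5, 38.9 and 53.2 on day 8 and 378, 957 and 530.1 on day 2 (change -3.69 log2, edgeR adjusted p = 0.0386, and 0.0564 under TMM). CCL5, a chemokine that activated T cells and NK cells release, had 454, 1307 and 720.2 on day 8 and 2439.8, 513 and 608 on day 2, and day 8 tumours B and C exceeded day 2 tumours B and C. Its change was -0.52 log2 (SE 0.82, edgeR adjusted p = 0.63) and 0.40 under TMM. When a day 2 tumour was left out, the edgeR adjusted p passed 0.05 for CCL19 (0.0942 without A, 0.0625 without B and 0.056 without C) and CCL4 (0.0709 without B and 0.057 without C).

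Checkpoint and regulatory genes, which restrain T cells, gave 8 lower and 0 higher of 29 tested, with a median of -0.89 log2, close to that of all tested genes. With TMM 4 were lower and 1 higher, with a median of 0.01. The largest falls here besides IDO1 were CD274 and NOS2. CD274, the PD-1 ligand that interferon-gamma induces, had 37.8, 47.2 and 65.4 on day 8 and 859.5, 693 and 356 on day 2 and fell by 3.67 log2 (SE 0.78, edgeR adjusted p = 0.0105), to values inside the untreated range of 34.03 to 184. NOS2, which makes nitric oxide in activated macrophages, had 30.5, 105 and 76.8 on day 8 and 1353, 143 and 601 on day 2, where tumour B stood lowest (fell by 3.31 log2, edgeR adjusted p = 0.0225). NOS2 had an edgeR adjusted p of 0.0653 without day 2 tumour A.

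Of the checkpoint receptors on T cells, PDCD1 (PD-1) had 26.5, 35.7 and 35.7 on day 8 and 52.9, 58.5 and 433 on day 2, so its change of -2.43 log2 (edgeR adjusted p = 0.0318) rested on tumour C, without which the adjusted p was 0.252. CTLA4 had 25.98, 41.5 and 55.5 on day 8 and 100.1, 125 and 317 on day 2, without overlap and without a call (edgeR adjusted p = 0.0675). LAG3 had 39.5, 150.0 and 80.6 on day 8 and 58.6, 68.4 and 219.8 on day 2, and FOXP3, the factor of regulatory T cells, 27.1, 27.4 and 22.8 on day 8 and 14.3, 42.8 and 175 on day 2. Both overlapped between the days, with edgeR adjusted p of 0.706 and 0.0956, and LAG3 read -0.32 log2 here and 0.51 under TMM. The anti-inflammatory cytokine IL10 had 146, 156 and 160.5 on day 8 and 149, 168 and 259 on day 2 (change -0.30 log2, SE 0.51, and 0.59 under TMM, neither called in edgeR). TGFB1, the other regulatory cytokine, had 1344, 1776 and 1282 on day 8 and 1407, 1255 and 175 on day 2 and was not called (edgeR adjusted p = 0.377).

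Macrophage and monocyte genes gave 4 lower and 0 higher of 28 tested, with a median of -1.11 log2, and 3 lower with a median of -0.24 under TMM. The share called lower, 14.3%, was under the 19.2% of all tested genes. Among the lower members were ACOD1, CCL8 and NOS2, which stimulated macrophages make. ACOD1, the enzyme that makes itaconate in stimulated macrophages, had 14.1, 17.9 and 13.7 on day 8, none above background, and 2629, 1599.6 and 679 on day 2. It fell by 6.74 log2 (SE 1.21, edgeR adjusted p = 0.00646). The monocyte chemokine CCL8 had 31.6, 41.5 and 66.2 on day 8 and 6951, 3962 and 1571 on day 2 and fell by 6.49 log2 (SE 1.36, edgeR adjusted p = 0.00999). Lineage markers did not pass the test. CD68, a lysosomal protein of macrophages, had 617, 627 and 569 on day 8 and 1663, 1136 and 782 on day 2 (change -0.98 log2, SE 0.62, edgeR adjusted p = 0.223). The complement subunit C1QA had 1192, 1989.7 and 1072 on day 8 and 3228, 8621 and 2192 on day 2 (change -1.72 log2, SE 0.84, edgeR adjusted p = 0.125). The haemoglobin scavenger receptor CD163 had 1044, 1119.6 and 1059 on day 8 and 528, 921 and 194 on day 2 (change 0.96 log2, SE 0.86, edgeR adjusted p = 0.387).

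Among dendritic cell genes 1 of 11 was lower, the costimulator CD40, with 142, 150.0 and 164 on day 8 and 2439.8, 1889 and 562 on day 2 (fell by 3.43 log2, SE 0.78, edgeR adjusted p = 0.016). ITGAE, an integrin of mucosal T cells and some dendritic cells, lay the other way with 912, 688 and 4237 on day 8 and 309, 67.01 and 969.7 on day 2, overlapping and not called (edgeR adjusted p = 0.199). ITGB2, the integrin chain that leukocytes share, had 182, 197 and 161 on day 8 and 2069, 3369 and 4028 on day 2 and fell by 4.13 log2 (SE 0.80, edgeR adjusted p = 0.00961). All 3 day 8 values of ITGB2 were inside the untreated range of 73.5 to 254. Neutrophil genes gave 1 lower of 15 tested, with a median of -2.17 log2, and mast cell genes 0 of 6. The shares called lower, 9.09% of dendritic cell and 6.67% of neutrophil genes, were under the 19.2% of all tested genes. The neutrophil protein S100A8 had 284, 140.4 and 189 on day 8 and 1733, 232 and 802 on day 2 (edgeR adjusted p = 0.242). Its partner S100A9 had 38.4, 15.3 and 39.5 on day 8 and 491, 129.7 and 200.4 on day 2 (edgeR adjusted p = 0.212). The called member of the neutrophil list was OSM, a cytokine of the IL-6 family, with 7.91, 10.2 and 15.97 on day 8, none above background, and 72.9, 92.7 and 136 on day 2 (change -3.12 log2, edgeR adjusted p = 0.0379, and 0.0531 under TMM). OSM was not called without day 2 tumour B or C (edgeR adjusted p = 0.0522 and 0.0677). Its 136 counts in day 2 tumour C were barely above that tumour's background of 135.

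Acute inflammation genes gave 5 lower and 0 higher of 28 tested, 17.9% lower against 19.2% of all tested genes. The median was -1.40 log2, and under TMM it was -0.58 with 1 gene lower. That gene was SAA1, an acute-phase protein, with 18.1, 14.7 and 7.605 on day 8 and 156, 135 and 297 on day 2 (fell by 3.83 log2, SE 0.97, edgeR adjusted p = 0.0197). It was above background in 1 of 3 day 8 tumours. TNF had 37.8, 40.9 and 37.3 on day 8 and 167, 188 and 291 on day 2, a change of -2.47 log2 (edgeR adjusted p = 0.0358, and 0.0808 under TMM). The cytokine IL6 was scattered, with 10.2, 15.96 and 55.5 on day 8 and 256, 41.3 and 1054 on day 2, and was not called (edgeR adjusted p = 0.107). IL1B was above background in 0 day 8 tumours and 1 day 2 tumour. In the complement list 5 of 26 were lower (19.2%, the same share as of all tested genes), and 0 under TMM. Of these, CFB, the factor of the alternative pathway, had 38.98, 73.4 and 116 on day 8 and 2139.5, 107 and 582 on day 2, where day 2 tumour B lay below day 8 tumour C (edgeR adjusted p = 0.0457). C4BPA, a complement inhibitor, had 11.9, 40.2 and 18.3 on day 8 and 57.2, 161 and 317 on day 2 (edgeR adjusted p = 0.0473). C7, a part of the membrane attack complex, had 133, 2767 and 1240.3 on day 8 and 428, 103 and 297 on day 2 and was not called (edgeR adjusted p = 0.181). Some of these edgeR calls were lost when a day 2 tumour was left out. For TNF the adjusted p in edgeR was 0.0707 without C. For CFB it was 0.17 without A and 0.0579 without C, and for C4BPA 0.063 without B and 0.124 without C.

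Among apoptosis genes 4 of 12 were lower and 0 higher, with a median of -0.70 log2. Under TMM the median turned to 0.21, with 1 gene lower (FASLG) and 1 higher, the adaptor FADD (adjusted p = 0.0405). CASP8, the initiator caspase of death receptors, had 19.8, 22.98 and 41.1 on day 8 and 114, 139.7 and 129 on day 2 (change -2.19 log2, edgeR adjusted p = 0.0231, and 0.0763 under TMM). In day 2 tumour C, CASP8 lay below the background of 135. The related CASP10 had 93.2, 85.5 and 195 on day 8 and 488, 476 and 394 on day 2 (change -1.86 log2, edgeR adjusted p = 0.0487, and 0.18 under TMM). CASP10 was not called when any of the 3 day 2 tumours was left out (edgeR adjusted p = 0.0787, 0.0802 and 0.0685 without A, B and C).

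LOC490356, a probe whose symbol in the gene table is only a locus number, had the smallest adjusted p of all. It had 32.8, 34.5 and 40.3 on day 8 and 651, 201 and 439.6 on day 2. It fell by 3.58 log2 (SE 0.56, edgeR adjusted p = 0.00436), and its day 8 values lay close together. IFGGC1 had 46.9, 232 and 66.2 on day 8 and 9206, 6867 and 1810.2 on day 2, with day 8 tumour B the highest of its group (fell by 5.69 log2, SE 1.47, edgeR adjusted p = 0.0215).

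**Figure D4:**
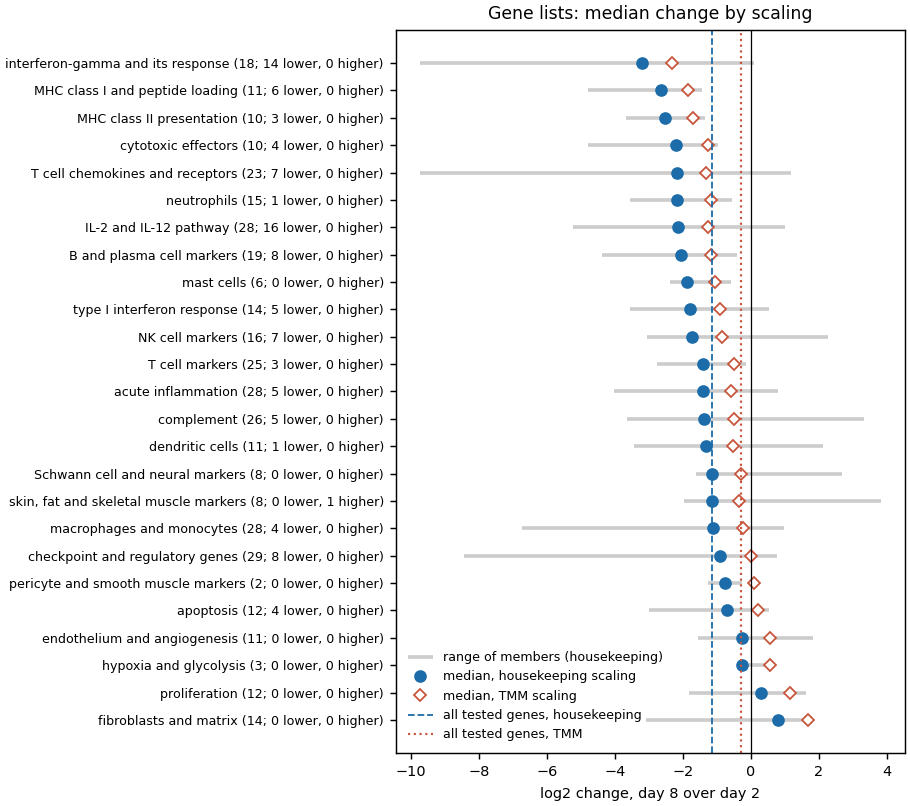
Median log2 change, day 8 over day 2, of the tested members of 25 gene lists, with housekeeping scaling as filled circles and TMM as open diamonds. Grey lines give the range of the members, the number tested and called stand beside each name, and the vertical lines mark all tested genes (-1.13 and -0.28). The interferon-gamma list lies lowest (-3.20 and -2.30) and the fibroblast and matrix list highest (0.81 and 1.67).

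Of the 3 genes that were higher on day 8, CLDN1 and IL13RA2 are described. CLDN1, a tight-junction protein of epithelium and of perineurial cells, had 5350.4, 6823 and 6817 counts on day 8 and 755, 84.1 and 478 on day 2 and rose by 3.85 log2 (SE 1.24, edgeR adjusted p = 0.0426). All 3 day 8 values were inside the untreated range of 1028 to 13656, while the 3 day 2 values lay below it. Of the 8 tested skin, fat and muscle markers, CLDN1 was the only one called. Of these markers 6 had a negative change, and their median was -1.14 log2, against -1.13 for all tested genes, and -0.33 under TMM. Their summed level was 5807 to 8889 on day 8, where CLDN1 made up most of it, 538 to 7709.9 on day 2 and 1964 to 14202 in untreated tumours. IL13RA2, a decoy receptor for IL-13, had 469, 1935 and 2592 on day 8 and 166, 133 and 265 on day 2 (rose by 3.16 log2, SE 1.07, edgeR adjusted p = 0.0487). In both genes every day 8 tumour exceeded every day 2 tumour, as in 37 of all 724 genes (5.11%). Neither call held when any 1 day 2 tumour was left out, the edgeR adjusted p being over 0.05 for CLDN1 (0.052 without A, 0.0919 without B and 0.0889 without C) and IL13RA2 (0.0978 without A, 0.11 without B and 0.0813 without C).

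The next largest positive changes were not called under housekeeping scaling. CD55, which protects cells from complement, had 6406, 5976 and 424 on day 8 and 699, 202 and 356 on day 2. Day 8 tumours A and B were high and C was within the day 2 range (change 3.35 log2, edgeR adjusted p = 0.0701, and 0.0428 under TMM). TUBB3, a tubulin of neurons and nerve tumours, had 3175, 4159 and 2969 on day 8 and 260.3, 91.2 and 1254 on day 2, without overlap (change 2.69 log2, edgeR adjusted p = 0.068). The neuronal protein MAP2 had 162, 359 and 12.2 on day 8 and 20.02, 19.96 and 64.6 on day 2, above background in 2 day 8 tumours and 0 day 2 tumours (change 2.47 log2, edgeR adjusted p = 0.0646, and 0.0272 under TMM). NCAM1, an adhesion molecule of Schwann cells and NK cells, had 386, 142 and 145 on day 8 and 18.6, 25.7 and 109.9 on day 2 (change 2.26 log2, edgeR adjusted p = 0.115). NCAM1 was above background in 3 day 8 and 0 day 2 tumours. In the Schwann and neural list as a whole 0 were lower and 0 higher of 8, and 5 had a negative change, among them S100B and SOX10. The median of the list was -1.15 log2, against -1.13 for all tested genes, and -0.30 under TMM. The summed level was 3643 to 5386 on day 8, where TUBB3 made up most of it, 1044 to 3419.9 on day 2 and 2081 to 6466 in untreated tumours.

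Fibroblast and matrix genes had the most positive median of the 25 lists, 0.81 log2 (1.67 under TMM), with 0 lower and 0 higher of 14, and 1 higher under TMM, THY1. Their summed level was 281798 to 436693 on day 8, 146609.9 to 230765 on day 2 and 249843 to 516990.4 in untreated tumours. The mean log2 level over the genes overlapped between the days, at 12.03 to 12.645 on day 8 and 10.94 to 12.41 on day 2. THY1, a surface protein of fibroblasts and other stromal cells, had 5201, 9389 and 12549 on day 8 and 5888, 978 and 1545 on day 2 (change 1.69 log2, SE 0.71, edgeR adjusted p = 0.0875, and 0.0428 under TMM). Only day 2 tumour A was as high as a day 8 tumour. The matrix protein fibronectin, FN1, had 30435, 22086 and 25221 on day 8 and 26782, 4397 and 8152 on day 2, where again A reached the day 8 range (change 0.98 log2, SE 0.67, edgeR adjusted p = 0.265). With sarcoma type in the model the changes were 1.42 log2 for THY1 and 0.51 for FN1 (edgeR adjusted p = 0.214 and 0.64).

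Proliferation, endothelial, hypoxia and pericyte genes held no call under housekeeping scaling. The lists had 12, 11, 3 and 2 tested genes, with medians of 0.29, -0.27, -0.27 and -0.76 log2. Under TMM the medians were 1.17, 0.58, 0.58 and 0.09, so that the last 3 turned positive. TMM called the cyclin CCND1 and the endothelial co-receptor NRP1 higher (adjusted p = 0.0471 and 0.0446). MKI67, a protein of dividing cells, had 72.3, 47.2 and 221 on day 8 and 385, 298 and 45.3 on day 2, and the values crossed (change -1.12 log2, SE 0.90, edgeR adjusted p = 0.344).

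**Figure D5:**
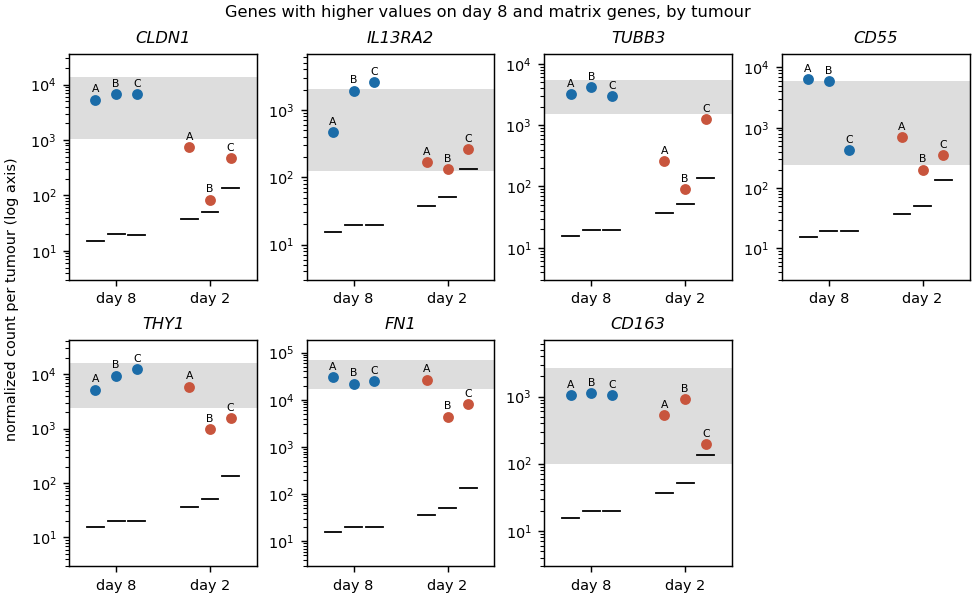
Normalized counts per tumour on a log axis for CLDN1 and IL13RA2, called higher on day 8, and 5 others, with day 8 on the left and day 2 on the right of each panel. Black dashes are each tumour's background and the grey band is the untreated range. Day 2 values of CLDN1 lie below the band, and day 8 values inside it.

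The 7 untreated tumours give a further level to set beside both days. Of the 139 lower genes, 117 had all 3 day 2 tumours above the highest of the 7 untreated tumours, against 224 of all 724. On day 8, 85 of the 139 (61.2%) had all 3 tumours inside the untreated range, against 383 of 724 (52.9%). At least 1 day 8 tumour was above the untreated maximum in 40 of the 139, against 229 of 724. All 3 were above it in 4 of the 139 (EOMES, GZMB, IFNA7 and NKG7), against 19 of all 724. GZMB in tumour C passed the maximum by less than 1 count, a margin that is not resolved. IFNA7, with a day 8 mean of 21.65 against a maximum of 20.01, lay close to the day 8 background of 15.4 to 19.7. Day 8 levels of the interferon-gamma list summed to 8464 to 10812 normalized counts, against 60188 to 251552 on day 2, with 5623 to 13386 in untreated tumours. Cytotoxic genes summed to 2429 to 3301 on day 8 and 4047 to 26842 on day 2, with 975 to 5359 in untreated tumours. Genes with high counts weigh most in such sums. As a mean log2 level over its genes, the cytotoxic list had 6.31 to 6.63 on day 8, above the untreated 4.90 to 6.05. The NK cell marker list likewise had 5.94 to 6.19 against 4.845 to 5.68. The interferon-gamma list, at 6.95 to 7.66, stayed inside the untreated 6.43 to 7.76. In the MHC class I list day 8 tumours B and C, at 9.937 and 9.825, lay above the untreated maximum of 9.631. The MHC class II list had B and C at 10.112 and 10.645, above the untreated maximum of 9.971. Day 8 tumour A, at 8.559 for class I and 9.151 for class II, was inside the untreated range of each. These ranges are descriptions, since the untreated tumours were archived and of another mix of types.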

How the data were processed

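RNA was extracted from formalin-fixed, paraffin-embedded tumour sections and counted on the nCounter Canine IO panel (780 endogenous, 20 housekeeping, 8 negative and 6 positive control probes). Per the file headers, the deposited raw files hold unnormalized counts per probe. The authors' normalized signal, deposited as a further table of values, in the 6 single-dose tumours equalled the raw count times 1 factor per tumour, with a floor at the mean negative control count. In the other 11 tumours, all 7 untreated ones among them, that signal also held a factor per probe (SD 0.058 to 0.063 log2), which the scaled raw counts used here do not hold, so margins of a few percent against untreated levels are not resolved. The nSolver version is not given in the sources used here. Another table with 17 sample columns that match no label was not used.

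The raw endogenous counts were tested with edgeR 4.0.16 in R 4.3.3 (robust quasi-likelihood F test), with the 4 groups of 17 tumours in 1 model and the housekeeping geometric mean as library size. A probe was tested when it passed the mean plus 2 SD of the negative controls in at least 3 tumours, which kept 724 and removed 56. Calls were made at a Benjamini-Hochberg adjusted p under 0.05 over all 724. The SE was worked back from the F statistic. TMM, median-of-ratios, DESeq2 1.42.0, limma 3.58.1 on the deposited signal (pseudocount 1 or 10), filters, covariates and leaving out each tumour were alternatives, and the script was tested on simulated data. Total counts of 126997 to 1571458 per tumour and, more so, 3 tumours a group limit the precision. The edgeR p-values test the day 8 minus day 2 difference against a spread between tumours estimated from all 17.

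Of 780 endogenous probes, 757 were named through the RefSeq gene table of UU_Cfam_GSD_1.0. Genes named in the text are the 15 largest falls and the 8 largest positive changes among genes averaging 50 or more normalized counts in the higher group, a set of anchor genes, the 3 largest called members and the least changed member of each list, the 10 smallest adjusted p values, and 3 marker genes of the tissue. Some of the genes that this rule names are not reported here. FADD, CCND1 and NRP1 were named after their values were seen. CXCL9 had no probe and TIGIT was not tested. The 25 lists, the named genes and the tests were chosen with earlier results of these data known.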

Additional observations from a re-analysis of the deposited data

Results flagged for a closer look

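THY1 in the untreated tumours, which give its background level beside the day 8 and day 2 values, had 1 tumour far from the others. Untreated replicate C had 2363 normalized counts and the nearest of the other 6 tumours 8748, a gap of 0.681 of the whole range, where 0.568 is the 95% limit for 7 values. Chance passes that limit in about 1 of 20 groups, and 31 genes were examined. Without replicate C the lower end of the untreated THY1 range would be 8748, above day 8 tumour A and all 3 day 2 tumours.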

How the results depend on the processing

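Against 142 calls (139 lower, 3 higher) and a median change of -1.13 log2, the count was 81 with TMM (54 lower, 27 higher, median -0.28), 76 with median-of-ratios scaling (51, 25, -0.25) and 5 with positive control scaling (5, 0, -0.37). DESeq2 gave 285 with housekeeping size factors (268, 17) and 174 with its own size factors (100, 74, median -0.24). Limma on the deposited values gave 91 lower and 5 higher genes with pseudocount 1 and 111 lower and 5 higher with pseudocount 10. Background subtraction left 45 calls (44, 1), the sarcoma type covariate 80 (80, 0) and peripheral nerve sheath tumors alone 0 (0, 0). TMM with the shallow day 2 tumour C left out, chosen after seeing the data, gave 38 calls (32, 6) and turned the median to 0.15. Leaving out single tumours gave 0 to 136 calls, 0 to 130 lower and 0 to 6 higher genes, with medians of -1.30 to -0.84. The cause of these moves was not tested. Replicate letters did not pair the samples (same-letter correlations -0.207, -0.026 and -0.091), and with the letter as a replicate block 145 genes were called (143 lower, 2 higher, median -1.06).

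Of the 139 lower genes, 133 kept a negative change under TMM without day 2 tumour C and 138 with positive control scaling. Among the named genes that were called, only PDCD1 turned direction, to 0.21 under TMM without day 2 tumour C. Among those not called, PRF1 was 0.21 in that fit, CD4 0.81, CD160 0.35, LAG3 1.46, FOXP3 0.84, IL10 0.96 and CCL5 0.19. TMM, median-of-ratios and DESeq2 with its own size factors gave 0.02, 0.04 and 0.06 for CD160, 0.51, 0.58 and 0.61 for LAG3, 0.59, 0.63 and 0.64 for IL10 and 0.40, 0.36 and 0.36 for CCL5. Positive control scaling gave 0.37 for CD4, 0.99 for LAG3, 0.70 for FOXP3 and 0.52 for IL10, and background subtraction 0.08 for CD160 and 0.10 for LAG3. Leaving out single tumours gave -0.08 to 0.20 for JAK1 (negative without day 8 A or day 2 C), -0.25 to 0.35 for IFNGR1 (negative without day 8 C or day 2 C), -0.90 to 0.50 for LAG3 (positive without day 8 A or day 2 C) and -1.02 to 0.56 for CCL5 (positive without day 2 A). With only housekeeping probes above background in all samples JAK1 was -0.03. Depth limits genes near the day 2 background most.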
